A study of Mus musculus with 3 samples.

Results

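The genes described here are 8 Toll-like receptor genes (Tlr1, Tlr2, Tlr3, Tlr4, Tlr5, Tlr6, Tlr7 and Tlr9) and 2 genes of lipopolysaccharide co-receptors, Cd14 and Ly96. They were taken by symbol from the deposited table of read counts, where all 10 of 10 were found among 27179 genes. The study sequenced RNA of adipose stem and progenitor cells of epididymal fat, taken from male C57B6 mice that were wild type, naive and 12 weeks old. The stromal fraction was freed with collagenase II, and live cells were sorted that lacked CD45, CD31 and Ter119 and carried CD140a, Sca1 and podoplanin. There is 1 group of 3 numbered libraries with no treatment or second genotype, so the comparisons are between genes within a library and between libraries. Whether a library stands for a single mouse is not stated. The p-values refer only to these 3 libraries, and part of the spread between them may be technical.

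Toll-like receptors are membrane proteins that bind microbial products through leucine-rich repeats and signal through an intracellular TIR domain. TLR4 needs MD-2, the secreted protein encoded by Ly96, to bind lipopolysaccharide (LPS), and CD14 hands LPS to that pair. TLR2 works as a dimer with TLR1 or TLR6 and binds bacterial lipopeptides, TLR5 binds flagellin, and TLR3, TLR7 and TLR9 sit in endosomes, where they bind double-stranded RNA, single-stranded RNA and unmethylated CpG DNA. In fat, TLR4 on adipocytes, stromal cells and macrophages has been studied as a sensor of LPS and as a link between lipid overload and inflammation.

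The libraries held 32813373, 25060096 and 27275888 counts. Levels are CPM (a gene's count scaled to a TMM-normalised library size), and a count of 0 allows up to 0.0945, 0.119 and 0.107 CPM in libraries 1, 2 and 3 (3 counts, counting error only, since PCR copies are not independent molecules). Genes of the sorted surface proteins were abundant: Pdgfra (CD140a) at 1484 ± 14.5 CPM, Ly6a (Sca1) at 3254 ± 441 and Pdpn at 119 ± 31.9 (mean ± SD, n = 3 libraries, as throughout). Of the genes of the excluded proteins, Pecam1 (CD31) had 4 counts in all, whereas Ptprc (CD45) had 5.42, 15.8 and 7.68 CPM. Among 18 macrophage and monocyte markers, 0 reached 1 CPM in every library, beside 43.7% of protein-coding genes.

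The 10 genes fell into 2 sets with no intermediate level. Ly96, Tlr4, Tlr2, Tlr3 and Cd14 had 4.57 CPM or more in all 3 libraries, and Tlr1, Tlr5, Tlr6, Tlr7 and Tlr9 had 0 to 2 counts in each. With detection defined as at least 1 CPM in each library, 5 of 10 were detected, beside 35.0% of all genes in the table and 43.7% of protein-coding genes. A share of 5 in 10 lies near that background, so the count by itself sets the family apart from other genes in no way. The median of the 10 genes was 7.22 CPM, beside 0.108 over all genes and 1.90 over protein-coding genes, but it is only the midpoint between Cd14 and Tlr9 and no member lies near it. The set of detected genes was the same size at 0.5 and 2 CPM, with other library scalings and without each library in turn. At 5 CPM it held 4, because Cd14 in library 1 was below that level.

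**Figure D1:**
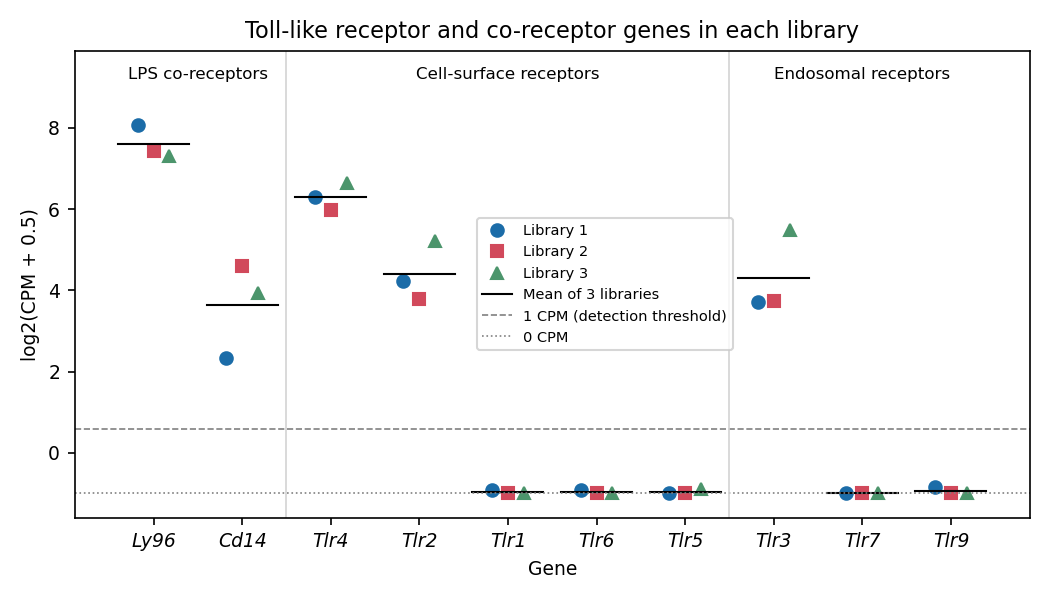
Level of each of the 10 genes in each library, as log2(CPM + 0.5) on the vertical axis, with genes grouped by role on the horizontal axis. Symbols are the 3 libraries, bars are means, the dashed line marks 1 CPM and the dotted line 0 CPM; Ly96, Cd14, Tlr4, Tlr2 and Tlr3 lie above the dashed line in all 3 libraries and the other 5 lie at the dotted line.

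The LPS receptor was present as RNA with both of its partners. Ly96 (gene 17087, chromosome 1, 16688456 to 16709605, plus strand, GRCm38) had 8511, 4345 and 4450 counts, or 268, 172 and 159 CPM, 199.7 ± 59.6 on average. Library 1 was the highest and the other 2 were close to each other. Tlr4 (gene 21898, chromosome 4, 66827551 to 66846581, plus strand) had 2486, 1576 and 2796 counts, or 78.3, 62.5 and 99.9 CPM, 80.2 ± 18.8 on average. It was highest in library 3 and lowest in library 2, and its 3 values lay within 1.60-fold of each other. Cd14 (gene 12475, chromosome 18, 36725064 to 36726815, minus strand) had 145, 601 and 417 counts, or 4.57, 23.8 and 14.9 CPM, 14.4 ± 9.63 on average. Its lowest library was 5.21-fold below its highest, the widest ratio among the 5 detected genes, and the low one was library 1, where Ly96 was highest.

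Because Ly96 has a short transcript, levels were compared per kilobase of exon (GENCODE M21). On that scale Ly96 stood at 196 ± 58.4 CPM per kilobase, rank 255 of 21572 genes with a length, with 98.8% of them lower. Tlr4 followed at 14.4 ± 3.38 (87.8% of genes lower), Cd14 at 8.33 ± 5.56 (81.7% lower), Tlr2 at 7.52 ± 4.03 (80.4% lower) and Tlr3 at 4.45 ± 3.49 (73.3% lower). The difference Tlr4 minus Ly96 was -4.21, -3.90 and -3.11 in the 3 libraries on the log2 scale per kilobase, a mean of -3.74 ± 0.57 and negative in 3 of 3 (two-sided exact sign-flip test by permutation over libraries, p = 0.25, adjusted p = 0.25 over 8 pairs). For 3 libraries 0.25 is the smallest p this test allows, so no pair could pass 0.05 by it. Without correction for length the difference was -1.30, still of the same sign. Cd14 minus Ly96 was -4.74 ± 1.54, again negative in 3 of 3 (exact sign-flip test, p = 0.25), and it was -3.86 without library 1.

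In the order of levels per kilobase, Ly96 lay above Tlr4 with no overlap of their 3 values. Tlr4 and Cd14 overlapped, Cd14 being higher in 1 library of 3. Cd14 exceeded Tlr2 in 1 of 3 libraries, and Tlr2 and Tlr3 overlapped although Tlr2 was higher within each of the 3. Tlr3 and Tlr9, the next gene down, did not overlap. The last 5, from Tlr9 through Tlr1, Tlr6 and Tlr5 to Tlr7, could not be ordered at this depth.

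**Figure D2:**
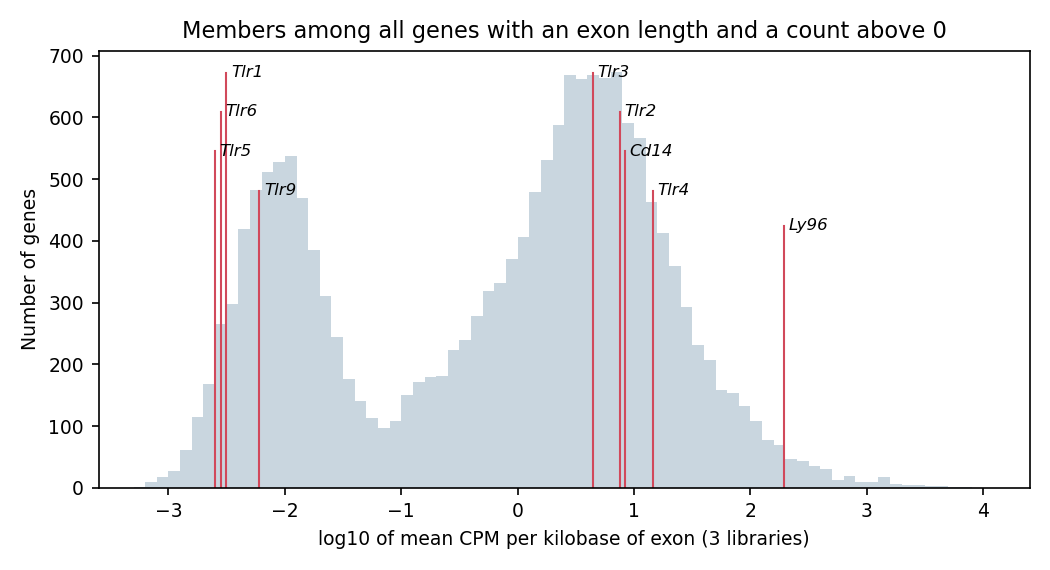
Histogram of log10 mean CPM per kilobase of exon (horizontal axis) for 17348 genes with an exon length and at least 1 count, with the number of genes on the vertical axis. Red lines mark 9 of the 10 genes, Tlr7 having 0 counts; Tlr3, Tlr2, Cd14, Tlr4 and Ly96 lie in or above the upper mode and Tlr9, Tlr1, Tlr6 and Tlr5 in the lower mode, where genes have only a few counts.

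Tlr2 was detected without the genes of its usual dimer partners. Tlr2 (gene 24088, chromosome 3, 83836272 to 83841824, minus strand) had 585, 333 and 1018 counts, or 18.4, 13.2 and 36.4 CPM, 22.7 ± 12.2 on average, with library 3 above the other 2. Tlr1 (gene 21897, chromosome 5, 64924680 to 64933600) and Tlr6 (gene 21899, chromosome 5, 64953092 to 64970942), which neighbour each other on the minus strand, each had 1 count in library 1 and 0 in libraries 2 and 3. The 1936 counts of Tlr2 against 1 count of either partner give a ratio of 1936, with a 95% exact counting interval of 347 to 76507 that covers counting error only, with no correction for length. Tlr2 minus Tlr1 was 5.53 ± 0.74 and Tlr2 minus Tlr6 was 5.68 ± 0.74 on the log2 scale per kilobase, both positive in 3 of 3 (exact sign-flip test, p = 0.25 for each). The 0.5 CPM added before the log holds these 2 differences down, and with 0.1 CPM added they were 7.72 and 7.87.

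Tlr1 and Tlr6 are close paralogs, so reads that match both could have been left out in counting. Their coding sequences share an identical run of 229 bases, which begins at coding base 1468 of Tlr1 and 1507 of Tlr6. The first 120 bases of that run are printed to show a stretch in which a read cannot be given to either gene. They lie on the minus strand (GRCm38), at chr5:64925646-64925765 in Tlr1 and chr5:64953937-64954056 in Tlr6, and are the same in both.
Tlr1 and Tlr6: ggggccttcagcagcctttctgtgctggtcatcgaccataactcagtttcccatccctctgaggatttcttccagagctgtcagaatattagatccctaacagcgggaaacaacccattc
Sharing covered only a small part of either transcript. Of all windows of 50 bases in the longest coding transcript, 15.3% of those of Tlr1 occurred in a transcript of another gene and 84.7% did not, and for Tlr6 these shares were 12.6% and 87.4%. With windows of 100 bases, 91.2% for Tlr1 and 92.8% for Tlr6 occurred in no other gene. For Tlr2, Tlr4, Tlr5, Tlr7, Tlr9, Cd14 and Ly96 no window of either size was shared. The read length is not given in the sources used here.

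Tlr5, the flagellin receptor gene (gene 53791, chromosome 1, 182954752 to 182976044, plus strand), had 1 count, in library 3. Its level there was 0.0357 CPM, with a 95% exact (Clopper-Pearson) interval of 0.000904 to 0.199. The receptor was thus below 1 CPM in each library, and a lower level was not resolved at this depth.

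Among the endosomal receptors, Tlr3 stood alone. Tlr3 (gene 142980, chromosome 8, 45395665 to 45411075, minus strand) had 398, 323 and 1235 counts, or 12.5, 12.8 and 44.1 CPM, 23.2 ± 18.2 on average. Libraries 1 and 2 were close to each other and library 3 was 3.52-fold above the lowest. Without library 3 the mean was 12.5 CPM. An annotated antisense transcript, Gm45542, overlaps exons of Tlr3. Since strandedness is not given in the sources used here, reads of the 2 genes from the overlapping stretch cannot be told apart. Of 50-base windows in the longest coding transcript of Tlr3 (4407 bases), 1.56% were shared with Gm45542. Exon bases of Tlr3 outside that transcript (5207 in all exons together) were not searched. Tlr7 (gene 170743, chromosome X, 167303380 to 167330574, minus strand) had 0 counts in all 3 libraries, and Tlr9 (gene 81897, chromosome 9, 106222598 to 106226876, plus strand) had 2 counts in library 1 and 0 in the others. Set against 3 counts over the group, the limit that a count of 0 allows, the Tlr3 counts, not corrected for length, were at least 652-fold higher than those of Tlr7. Against the 2 counts of Tlr9 the ratio was 978 (95% exact counting interval 270 to 8081). Tlr3 minus Tlr7 was 4.95 ± 1.02 and Tlr3 minus Tlr9 was 4.67 ± 1.07 on the log2 scale per kilobase, both positive in 3 of 3 (exact sign-flip test, p = 0.25 for each). The added 0.5 CPM sets the size of these 2 differences as well: with 0.1 CPM they were 7.24 and 6.78. Without library 3 they were 4.35 and 4.03.

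Tlr4 was higher than the other 2 detected receptor genes in each library. Tlr4 minus Tlr2 was 1.18, 1.32 and 0.56 on the log2 scale per kilobase, 1.02 ± 0.40 on average, and Tlr4 minus Tlr3 was 2.50, 2.15 and 1.08, 1.91 ± 0.74 on average (exact sign-flip test, p = 0.25 for each). Both differences were smallest in library 3, where Tlr2 and Tlr3 had their highest levels.

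For 2 detected receptor genes and for Tlr9, the sequence around an annotated start is printed. RefSeq windows (GRCm38.p6, 250 bases before to 50 after an annotated start) were matched for 6 of the 10 genes: Tlr1, Tlr2, Tlr3, Tlr5, Tlr6 and Tlr9. Capitals mark matches on either strand to 3 short motifs. They are the NF-kB consensus, the core AANNGAAA bound by interferon regulatory factors, and the GC box GGGCGG. The windows are chr3:83841559-83841858 (minus strand), chr8:45410331-45410630 (minus strand) and chr9:106222348-106222647 (plus strand). The Tlr3 window lies wholly within the gene span given above, and most of the Tlr2 window lies within that of Tlr2. Most of the Tlr9 window lies before its gene, so the 3 windows are not alike in position.
Tlr2: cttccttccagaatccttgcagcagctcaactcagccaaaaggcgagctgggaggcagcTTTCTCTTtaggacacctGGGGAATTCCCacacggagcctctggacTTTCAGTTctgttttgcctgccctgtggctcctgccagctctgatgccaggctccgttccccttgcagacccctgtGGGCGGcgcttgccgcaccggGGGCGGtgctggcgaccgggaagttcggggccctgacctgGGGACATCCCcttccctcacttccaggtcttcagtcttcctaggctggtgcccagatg
Tlr3: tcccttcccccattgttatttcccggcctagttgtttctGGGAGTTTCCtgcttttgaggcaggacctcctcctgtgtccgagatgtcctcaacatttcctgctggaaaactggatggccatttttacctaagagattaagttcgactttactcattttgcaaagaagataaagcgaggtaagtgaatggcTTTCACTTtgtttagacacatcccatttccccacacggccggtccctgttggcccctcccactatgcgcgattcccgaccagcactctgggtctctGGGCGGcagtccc
Tlr9: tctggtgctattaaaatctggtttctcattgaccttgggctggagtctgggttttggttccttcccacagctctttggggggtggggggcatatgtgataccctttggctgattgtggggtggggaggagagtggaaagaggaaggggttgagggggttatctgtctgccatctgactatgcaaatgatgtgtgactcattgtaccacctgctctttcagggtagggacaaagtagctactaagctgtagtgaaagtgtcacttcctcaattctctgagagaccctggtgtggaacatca
The NF-kB consensus matched at GGGGAATTCC, GGGAATTCCC and GGGACATCCC in the Tlr2 window, the first 2 of which overlap, and at GGGAGTTTCC in the Tlr3 window. The windows of the other 4 genes held no match to it. Over 32851 promoter windows of the same length, 8.46% held the NF-kB consensus, 23.9% the AANNGAAA core and 35.7% the GC box. The core was found in windows of Tlr1, Tlr2, Tlr3 and Tlr6, the GC box in those of Tlr2, Tlr3 and Tlr5, and the Tlr9 window held none of the 3. The undetected Tlr1, Tlr5 and Tlr6 thus held matches, and the detected Ly96, Tlr4 and Cd14 had no window. The windows therefore give no contrast of detected with undetected genes. Of the undetected genes only Tlr9 is printed, whose window held no match, so the 3 printed windows cannot stand for such a contrast. The motifs were chosen after the counts and these sequences had been seen. These matches describe letters, not binding.

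The 3 libraries differed in how much of each detected gene they held, and none of the differences passed the test across all genes. An intercept-only negative binomial fit with trended dispersion in edgeR asked of 13289 genes whether the libraries varied more than the trend at their level. It called 0.572% of all genes at an adjusted p under 0.05, and 0 of the 5 members with enough counts to be tested. At an unadjusted p under 0.05 it called 7.73% of all genes and also 0 of 5 members, and with dispersions from DESeq2 it called 0 members as well. The smallest adjusted p was that of Tlr3 at 0.79 (edgeR goodness of fit), followed by Ly96 at 0.84, Cd14 at 0.89, Tlr2 at 0.94 and Tlr4 at 1.0. A p that misses the threshold does not show that the libraries were alike.

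As a description, the coefficient of variation was 78.4% for Tlr3, 66.8% for Cd14, 53.6% for Tlr2, 29.8% for Ly96 and 23.4% for Tlr4. Counting error alone would give 1.34% to 4.97% at these depths. Genes within 2-fold of the same mean level had median coefficients of 40.5%, 48.4%, 40.9%, 19.6% and 25.9% in the same order. Tlr3 thus varied more than 91.1% of the 3992 genes near its level, and Tlr4 more than 42.9% of 2923. Tlr2, Tlr3 and Tlr4 all had their highest value in library 3.

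**Figure D3:**
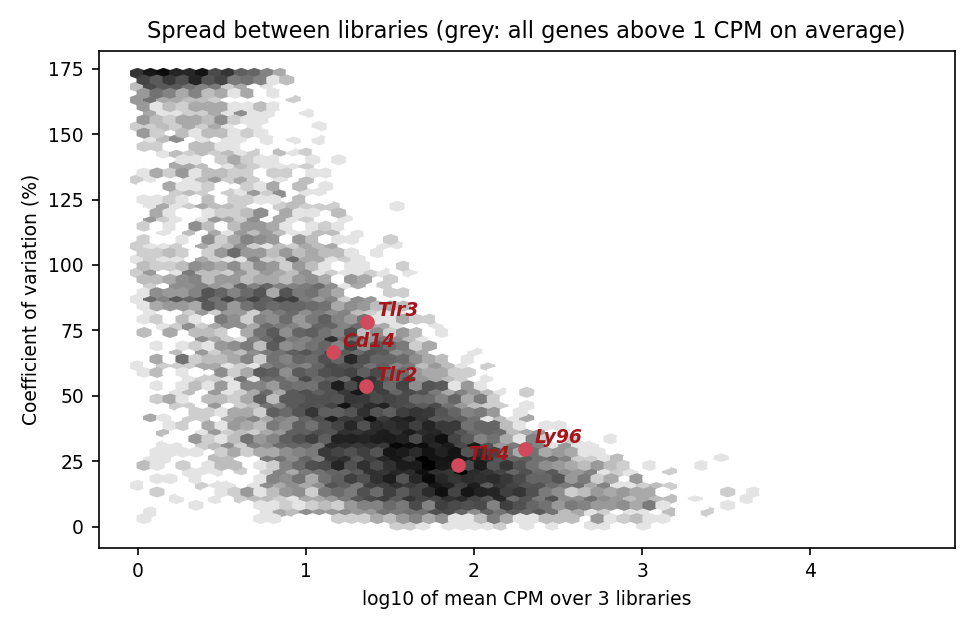
Coefficient of variation between the 3 libraries (vertical axis, percent) against log10 mean CPM (horizontal axis) for 11832 genes above 1 CPM on average, drawn as grey bins that are darker where there are more genes. The 5 detected genes are marked in red. Tlr3, at 78.4%, lies in the upper part of the spread for its level, with other genes above it, and Tlr4, at 23.4%, near the middle.

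Leukocyte markers were given beside these values because macrophages and monocytes carry TLR2, TLR4 and CD14 at high levels. The 18 macrophage and monocyte markers summed to 4.19, 4.60 and 0.929 CPM, with Spi1, Cd163 and C1qb at 0 counts, Adgre1 at 3 counts in all and Tyrobp at 1. Ptprc (5.42, 15.8 and 7.68 CPM), Csf1r (0.063, 2.18 and 0.143) and Cd68 (0.220, 1.70 and 0) were each highest in library 2, as was Cd14. Mertk (1.92, 0 and 0.0714 CPM), Lyz2 (0.788, 0 and 0) and Mrc1 (0.8505, 0.5548 and 0.5714) were instead highest in library 1, where Cd14 was lowest. Of the 15 macrophage and monocyte markers with any count, 9 were highest in library 1, 5 in library 2 and 1 in library 3. Many of them had only 1 to 3 counts in all, among them C1qa, Fcgr1 and Itgam. Library 1 was also the deepest, so this tally carries little weight. The part of these cells in the spread of Cd14 was not tested. Tlr2, Tlr3 and Tlr4 were highest in library 3, where the summed macrophage markers were lowest but Ptprc was above its level in library 1. The part of leukocytes in the levels of these 3 genes was not tested either. In pooled RNA, few cells with much of a transcript and many cells with little cannot be told apart. Of 8 neutrophil markers, 0 were detected, and S100a8, S100a9, Retnlg and Elane had 0 counts. Their summed level was 6.77, 0.0793 and 0.0714 CPM, nearly all of it Mmp9 in library 1. Of 8 conventional dendritic cell markers 0 were detected (7.50, 0.911 and 5.71 CPM summed), with Cd209a at 0 counts. Of 10 markers of B cells and plasmacytoid dendritic cells, the cells best known for TLR7 and TLR9, Tcf4 and Bst2 were detected, both of which are expressed widely, while Ms4a1 and Pax5 had 0 counts and Siglech 1. That list summed to 301, 263 and 372 CPM, nearly all of it Tcf4 and Bst2. Of 10 endothelial markers only Flt1 was detected (11.3, 2.42 and 2.14 CPM), and of 8 mesothelial markers only Nkain4 (20.1, 2.42 and 17.8 CPM).

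The remaining mouse receptor genes of the family were also near 0. Tlr8, Tlr11, Tlr12 and Tlr13 had 1, 0, 3 and 6 counts over the 3 libraries. Thus 0 of 4 were detected, beside 43.7% of protein-coding genes. Tlr8 binds single-stranded RNA products, Tlr11 and Tlr12 bind profilin of parasites and Tlr13 binds bacterial ribosomal RNA.

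Genes that deliver ligand or help the receptors fold were detected in 5 of 8 cases, beside 43.7% of protein-coding genes. Lbp, whose secreted product carries LPS to CD14, had 65.7, 127 and 73.4 CPM, 88.8 ± 33.5 on average, and was highest in library 2, as Cd14 was. Lman1, a cargo receptor gene of the secretory pathway, stood at 80.6 ± 16.2 CPM. The chaperone genes Hsp90b1 (1201 ± 148 CPM) and Cnpy3 (35.3 ± 13.4), which help Toll-like receptors mature, were both detected. Unc93b1, which escorts TLR3, TLR7 and TLR9 to endosomes, had 1.48, 3.01 and 7.68 CPM, 4.06 ± 3.23 on average, highest in library 3 as Tlr3 was. Cd180 and its partner gene Ly86, relatives of Tlr4 and Ly96, had 0 and 6 counts. Cd36, which assists TLR2, had 15.3, 0.0793 and 0 CPM, and its level in library 1 did not coincide with the highest value of Tlr2. Whether 2 genes share their highest library is a description only, as there are 3 libraries.

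Of 5 TIR adaptor genes 4 were detected, beside 43.7% of protein-coding genes, and the exception was the adaptor that links TLR4 to TRIF. At a threshold of 5 CPM the count was 2 of 5. Myd88, used by all receptors of the family in mice except TLR3, had 58.3, 15.9 and 59.3 CPM, 44.5 ± 24.8 on average, with library 2 low. Tirap, which brings MyD88 to TLR2 and TLR4, stood at 14.8 ± 2.90 CPM and Ticam1 (TRIF), the adaptor of TLR3 and of endosomal TLR4, at 6.02 ± 2.69. Sarm1 stood at 1.69 ± 0.484. Ticam2 (TRAM), the bridge between TLR4 and TRIF, had 1, 1 and 0 counts.

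Downstream kinase and ubiquitin ligase genes were detected in 14 of 16 cases, beside 35.0% of all genes and 43.7% of protein-coding genes. Irak1, a kinase of the MyD88 complex, stood at 115 ± 10.4 CPM, Peli1 at 102 ± 45.4, Chuk, an IkB kinase gene, at 87.1 ± 47.8 and Map3k7, which encodes TAK1, at 67.7 ± 6.61. Irak2 (1.32, 0.357 and 1.57 CPM) and Tab1 (1.76, 3.61 and 0.393 CPM) each fell below 1 CPM in 1 library. Of 6 transcription factor genes 4 were detected, led by Nfkb1 at 76.8 ± 3.68, Irf3 at 44.4 ± 7.51 and Rela at 38.6 ± 16.8 CPM. Rel (0.063, 1.15 and 2.57 CPM) and Irf5 (18 counts in all) were not.

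Genes that restrain the pathway were detected in 8 of 11 cases, beside 43.7% of protein-coding genes. Nfkbia, the NF-kB inhibitor IkB-alpha, stood at 183 ± 29.8 CPM, the deubiquitinase genes Cyld and Otud7b at 77.7 ± 16.5 and 67.0 ± 22.8, and Irak3, an inhibitory member of the IRAK family, at 54.3 ± 29.5. Irak3 (31.9, 43.2 and 87.7 CPM) and Tnfaip3, the gene of the deubiquitinase A20 (2.65, 12.0 and 34.8 CPM), were highest in library 3, as were Tlr2, Tlr3 and Tlr4. Neither was called as varying between the libraries (edgeR goodness of fit, adjusted p = 0.75 and 0.60). A shared highest library among 3 is a description only, and a link to the receptors was not tested. Sigirr had 0 counts, Peli3 had 2, and Il1rl1 had 0.126, 8.72 and 2.39 CPM.

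Of 14 genes known to be induced by LPS, 7 were detected, a share near the 43.7% of protein-coding genes. Ccl2 (1399.7 ± 142 CPM), Nfkbiz (362 ± 38.5), Cxcl1 (300.3 ± 114) and Ptgs2 (124 ± 67.8) led, while Ccl5 and Ifnb1 had 0 counts and Tnf, Il1b, Nos2 and Lcn2 had 10, 3, 5 and 2. The mice were naive, and no tissue was measured without digestion and sorting, so these levels cannot be read as a response through the receptors. Of 44 LPS-induced, kinase, adaptor, regulator, chaperone and ligand transfer genes with enough counts to be tested, 0 differed between the libraries at an adjusted p under 0.05 (edgeR goodness of fit), 5 did at an unadjusted p under 0.05, and with DESeq2 dispersions these counts were 0 and 5. Over all genes the edgeR fit called 0.572% and 7.73% at these thresholds. Ptgs2, Tnfaip3, Chuk and Cd36 were among the 5 in both fits, joined by Myd88 in the edgeR fit and by Cxcl1 with DESeq2 dispersions.

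**Figure D4:**
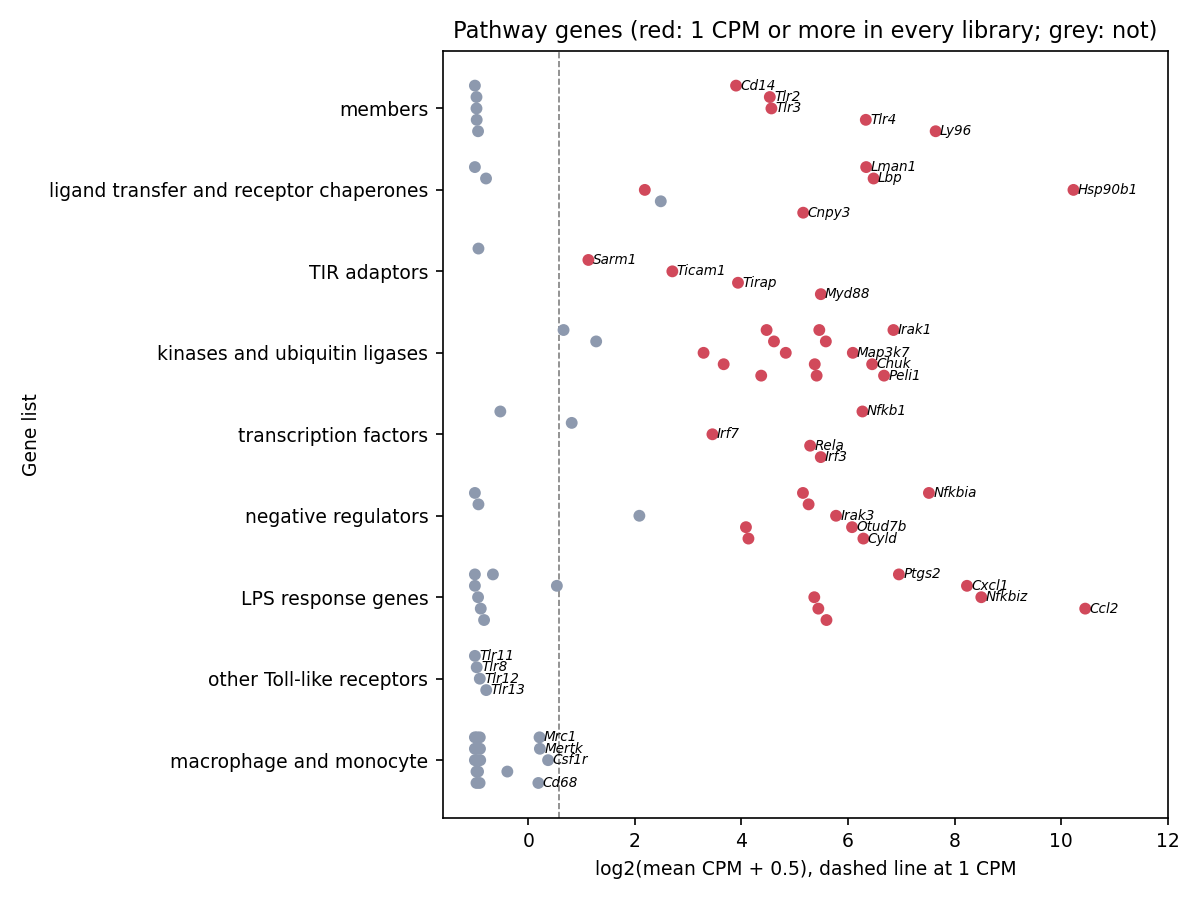
Mean level of each gene of the fixed lists as log2(mean CPM + 0.5) on the horizontal axis, 1 row per list on the vertical axis, with the highest members named. Red points reached 1 CPM in every library, as did 35.0% of all genes and 43.7% of protein-coding genes, and grey points did not. Of the 10 genes 5 are red, beside 7 of 14 LPS-induced genes and 14 of 16 kinase and ubiquitin ligase genes. For other Toll-like receptors it is 0 of 4, and for macrophage and monocyte markers 0 of 18.

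By the smallest root mean square difference in log2(CPM + 0.5) over the 3 libraries, the protein-coding genes nearest in pattern and level to Ly96 were Fnip1 (0.0286), Anxa5 (0.0654) and Adam9 (0.0739). Those nearest to Tlr4 were Zfyve21 (0.0294), Mpp1 (0.0566) and Gbp2 (0.0672), and those nearest to Cd14 were Gse1 (0.0681), Bysl (0.156) and Saal1 (0.166). With 3 libraries such likeness is a description only.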

How the data were processed

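RNA of sorted cells was sequenced in 3 libraries, prepared per the labels' protocols with a Clontech SMARTer kit (V4) for low RNA input, which amplifies cDNA by PCR. The authors deposited raw counts for each NCBI gene ID as whole numbers. CASAVA 1.8.2, STAR 2.3.0 and mm10 are named in the submitters' processing notes, while the counter, its annotation and its strand setting are not given in any source used here. Columns were matched to samples by the number in their titles. Symbols and coordinates came from RefSeq GRCm38.p6 (25275 IDs matched) and exon lengths from GENCODE M21 (21572 genes). CPM used TMM library sizes from edgeR 4.0.16 (R 4.3.3), with no filter on low counts. Log2 values used a pseudocount of 0.5. Pairs of members were compared by an exact two-sided sign-flip test with Benjamini-Hochberg adjustment over 8 pairs. Variation between libraries was tested by edgeR goodness of fit on genes with 10 counts or more in at least 1 library, and the code was tested on simulated data. DESeq2 1.42.0 gave alternative size factors and dispersions. Python 3.11.15, numpy 2.4.6, pandas 2.3.3, scipy 1.17.1 and matplotlib 3.10.9 were used. The members, pairs and gene lists were chosen with earlier results of these data known. The text names all members, the sort genes (1 of which is not reported here), up to 4 highest genes of each list, list genes at 0 counts or below 1 CPM where a count needed them, and the 3 genes nearest to each of the 3 highest members. Other list genes were named after their values were seen, for their role or for how their levels in the libraries compare with those of a member. The promoter motifs and the check of sequence shared between transcripts were added after the counts and promoter sequences had been seen. A narrower NF-kB pattern and a TATA box were searched as well and are not reported; among the members' windows the former matched those of Tlr2 and Tlr3 and the latter a window of Tlr6.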

Additional observations from a re-analysis of the deposited data

How the results depend on the processing

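The count of 5 detected members held at 0.5 and 2 CPM and under the other scalings, and it was 4 at 5 CPM and 5 without each library in turn. Apart from rescaling, leaving out a library can only keep or raise such a count. The 50 means of single members recomputed under the alternatives stayed within 1 SD of the values given. This check could hardly fail. A mean over 2 of the 3 libraries stays within that range almost by construction, and other scalings moved the means little. Of 119 recomputed counts of detected list genes, 16 differed from the count given, and 7 of them by more than 1.5-fold or to or from 0, among them the TIR adaptors, 2 of 5 at 5 CPM. The 8 differences between members kept their sign under the 8 alternatives run for each. Leaving out a library could not reverse a sign found in 3 of 3, and size factors nearly cancel within a library. Only the changes of pseudocount and length could have reversed a sign. Tlr4 minus Ly96 ranged from -4.06 to -1.30, Cd14 minus Ly96 from -5.31 to -3.86 and Tlr2 minus Tlr1 from 4.58 to 7.72, the extremes coming from no length correction, other pseudocounts or leaving out a library. The members called for variation between libraries remained at 0 under all 7 alternatives. The count over all genes was 76, and it was 812 with a common dispersion and 40 to 42 without 1 library. No paired analysis was possible because there is only 1 group. With 3 libraries, the exact sign-flip test between 2 members cannot go below 0.25. Depth limits the 5 undetected genes: levels under 0.0945, 0.119 and 0.107 CPM were not resolved in libraries 1, 2 and 3.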

Other observations

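Genes of cytosolic sensors of microbial or danger signals and of their adaptors belong to other families than the Toll-like receptors. They were detected in 7 of 12 cases, beside 43.7% of protein-coding genes. Ifih1 (MDA5), a sensor of long double-stranded RNA, stood at 128 ± 18.05 CPM, Ddx58 (RIG-I) at 39.9 ± 14.3, the peptidoglycan sensor gene Nod1 at 34.5 ± 5.73 and the shared adaptor gene Mavs at 33.3 ± 15.1. The double-stranded RNA sensor Tlr3 stood at 23.2 ± 18.2 CPM in the same libraries, a level not compared per length here. Sting1 (35.9, 10.3 and 34.9 CPM) and Cgas (6.21, 1.55 and 14.8 CPM), of the DNA-sensing pathway, were lowest in library 2, as Myd88 was. That likeness is a description only and was not tested. Nod2, Nlrp3, Aim2 and Naip2 had 3, 2, 4 and 3 counts in all, and Nlrc4 had 318 counts in library 1 but 0 and 1 in the others.

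Of 8 genes of matrix and other proteins described as ligands of TLR2 or TLR4, 7 were detected, beside 43.7% of protein-coding genes. Dcn (decorin) stood at 42285 ± 5321 CPM and was the one gene of all lists called as varying between the libraries (edgeR goodness of fit, adjusted p = 1.075e-45), with a highest library 1.28-fold above its lowest. The call was lost under 5 of 7 alternatives, among them DESeq2 dispersions (adjusted p = 1.0), no filter beyond 1 count (0.80), leaving out library 1 (0.99) and leaving out library 3 (0.65). Fn1 (fibronectin) stood at 4603 ± 631 CPM, Vcan (versican) at 323 ± 107.5 and Bgn (biglycan) at 145 ± 34.8. Tnc (tenascin C) had 7.40, 0.119 and 1.75 CPM and was the exception. Hmgb1 (18.6 ± 8.51 CPM) has many processed pseudogenes, so its level is uncertain.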
